A study of Mus musculus with 10 samples.

Results

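Tex101, Lypd3, Lypd4 and Lypd5 are 4 genes of the Ly6/uPAR family that lie close together on mouse chromosome 7. They were taken by name, as 4 of the 30460 genes listed, and by their GENCODE M21 symbols, with their levels in these libraries already known. They were chosen by FPKM in the same 10 libraries, so their values are given as a description, with no test, and support nothing further. The 10 RNA libraries were of embryonic stem cells from C57BL/6 mice. The genotypes were Mga-/- (3 libraries), L3mbtl2-/- (2 libraries), Pcgf6-/- (2 libraries) and wild type (3 libraries), with no other allele or agent named. The labels do not say whether replicates were separate clones or cultures, and a p-value therefore measures only the spread between libraries that may be technical repeats.

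Proteins of the Ly6/uPAR family carry a small disulfide-rich fold, named after the lymphocyte antigens Ly6 and the urokinase receptor uPAR, and most are held at the cell surface by a glycosylphosphatidylinositol (GPI) anchor. TEX101 is a GPI-anchored protein of male germ cells, and in the mouse it is needed for the sperm surface protein ADAM3 and for male fertility. LYPD4 is a sperm protein that is needed for male fertility in the mouse. LYPD3, also called C4.4A, is known from stratified epithelium such as the skin. MGA, L3MBTL2 and PCGF6 are subunits of the non-canonical Polycomb complex PRC1.6, which is known to repress germ cell genes in embryonic stem cells.

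In GRCm38 coordinates on chromosome 7, GENCODE M21 places Lypd5 (ENSMUSG00000030484) at 24349196 to 24355109 on the plus strand and Lypd3 (ENSMUSG00000057454) at 24636550 to 24641118 on the plus strand. Tex101 (ENSMUSG00000062773) lies at 24668007 to 24676675 and Lypd4 (ENSMUSG00000062732) at 24864620 to 24869941, both on the minus strand. Between them lie 281 kb and 14 other genes from Lypd5 to Lypd3, 26.9 kb and 2 genes from Lypd3 to Tex101, and 188 kb and 10 genes from Tex101 to Lypd4. At its start Lypd4 faces Dmrtc2, a gene of the DMRT family known for its role in male meiosis in the mouse, which runs the opposite way from 24870057 to 24877651 with 115 bases between the gene bodies. Lypd3 overlaps the antisense gene Gm26550 by 1367 bases, and because the library kit does not mark strand, reads in that overlap could belong to either. Gm26550 itself stayed at or below 0.0349 FPKM in all 10 libraries.

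Start regions are shown for Tex101, Lypd4 and Dmrtc2 because these genes moved together in the data. Each is the RefSeq window (GRCm38.p6) from 250 bases before to 50 bases after the annotated start, on the gene's own strand, at chr7:24672001-24672300 (minus) for Tex101, chr7:24869642-24869941 (minus) for Lypd4 and chr7:24869807-24870106 (plus) for Dmrtc2. For Tex101 and Lypd4 these RefSeq starts differ from the GENCODE starts. The Tex101 window lies inside the GENCODE gene body, away from its GENCODE start at 24676675. The RefSeq start of Lypd4 is 24869691, also inside its GENCODE body, and 365 bases separate it from the RefSeq start of Dmrtc2 at 24870057. Capitals mark CCAAT, or ATTGG where it lies on the other strand, and in Dmrtc2 also the E2F core GCGGGAA.
Tex101: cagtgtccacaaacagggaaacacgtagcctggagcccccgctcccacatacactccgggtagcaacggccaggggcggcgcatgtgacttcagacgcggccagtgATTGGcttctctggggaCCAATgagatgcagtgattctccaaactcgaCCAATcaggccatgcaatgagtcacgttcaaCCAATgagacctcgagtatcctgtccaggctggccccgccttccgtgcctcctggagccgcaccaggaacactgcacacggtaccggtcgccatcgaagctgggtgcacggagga
Lypd4: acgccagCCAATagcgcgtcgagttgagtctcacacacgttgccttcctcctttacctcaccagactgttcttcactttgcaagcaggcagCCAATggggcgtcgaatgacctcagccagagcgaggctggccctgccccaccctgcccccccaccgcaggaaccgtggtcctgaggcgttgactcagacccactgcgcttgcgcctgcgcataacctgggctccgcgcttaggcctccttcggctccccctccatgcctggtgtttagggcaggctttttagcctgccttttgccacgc
Dmrtc2: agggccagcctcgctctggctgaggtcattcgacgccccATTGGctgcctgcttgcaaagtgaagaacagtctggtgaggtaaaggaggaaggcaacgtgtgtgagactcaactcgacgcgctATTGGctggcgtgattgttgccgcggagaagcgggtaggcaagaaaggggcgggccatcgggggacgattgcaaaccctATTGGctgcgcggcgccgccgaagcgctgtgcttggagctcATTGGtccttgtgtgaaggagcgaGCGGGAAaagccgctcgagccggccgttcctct

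All 4 genes matched a RefSeq window. Motifs were searched on both strands in these windows and in all 32851 windows of the table. GCGGGAA was in 4.60% of all windows, the E-box CACGTG in 7.15%, the T-box AGGTGTGA in 1.28% and CCAAT in 37.4%, and CCAAT was searched only after the sequences had been seen. The Tex101 window held 4 CCAAT letters, beginning 144, 127, 96 and 65 bases before the RefSeq start. The Dmrtc2 window also held 4, and as many or more were found in 1.06% of all windows. The windows of Lypd4 and Dmrtc2 overlap by 135 bases, and the 2 CCAAT matches of Lypd4 are the same genome bases as 2 of the 4 in Dmrtc2. GCGGGAA was found once, in Dmrtc2, from 17 to 23 bases after its start, and it overlapped no CCAAT. The Lypd3 window held none of the motifs and the Lypd5 window 1 CACGTG, while AGGTGTGA was in none of the 5 windows. The ratio of observed to expected CpG was 0.70 in Tex101, 0.64 in Lypd4 and 0.95 in Dmrtc2, but 0.39 in Lypd3 and 0.19 in Lypd5, against a median of 0.38 over all windows. These matches are a description of letters in the windows and not of bound sites.

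The values are FPKM, fragments per kb of exon scaled to library depth, and each library held between 19370000 and 26730000 reads as recovered from the steps of its values. The library labelled Mga-/- replicate 2 did not have the lower Mga RNA of the others with its label. It had 19.6 FPKM of Mga. The libraries labelled Mga-/- replicates 1 and 3 had 8.03 and 11.2 FPKM, and wild type had 18.5 ± 1.30 FPKM (SD, n = 3). The genotype of replicate 2 was not tested. At Ddx4 it was near replicates 1 and 3, with 170 FPKM against 168 and 181 FPKM there and 9.21 to 10.2 FPKM in wild type. At Tex101 it lay between them and wild type. Over all 3 libraries labelled Mga-/-, Mga was 0.61 lower on the log2 scale (log2 fold change -0.61 ± 0.26 SE, limma adjusted p = 0.0987), and without replicate 2 it was -0.95 (limma adjusted p = 0.000691, with a range of 0.000691 to 0.24 over the alternatives). L3mbtl2 fell to 3.60 ± 0.162 FPKM in L3mbtl2-/- cells (SD, n = 2), against 20.2 ± 0.382 FPKM in wild type (SD, n = 3, limma adjusted p = 3.24e-05). Pcgf6 fell to 9.69 ± 0.182 FPKM in Pcgf6-/- cells (SD, n = 2), against 28.9 ± 1.13 FPKM in wild type (SD, n = 3, limma adjusted p = 2.8e-05). All 8 embryonic stem cell markers listed were present in every group, with sums of 3333 to 3551 FPKM in Mga-/- libraries, 3606 to 3677 FPKM in L3mbtl2-/- libraries, 4012 to 4136 FPKM in Pcgf6-/- libraries and 2356 to 2556 FPKM in wild type libraries.

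Tex101 was the most abundant of the 4 genes in every knockout library. It had 559, 53.4 and 551 FPKM in Mga-/- replicates 1, 2 and 3, 319 and 329 FPKM in L3mbtl2-/- replicates, 8.94 and 8.10 FPKM in Pcgf6-/- replicates, and 0.505, 0.610 and 0.817 FPKM in wild type replicates. All 7 knockout libraries lay above all 3 wild type libraries, and the library labelled Mga-/- replicate 2 lay well below the other two of its label. Among all 30460 genes listed, Tex101 ranked 58, 995 and 63 from the highest in the Mga-/- libraries, 104 and 100 in the L3mbtl2-/- libraries, 5458 and 5817 in the Pcgf6-/- libraries, and between 12226 and 13356 in the wild type libraries.

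**Figure D1:**
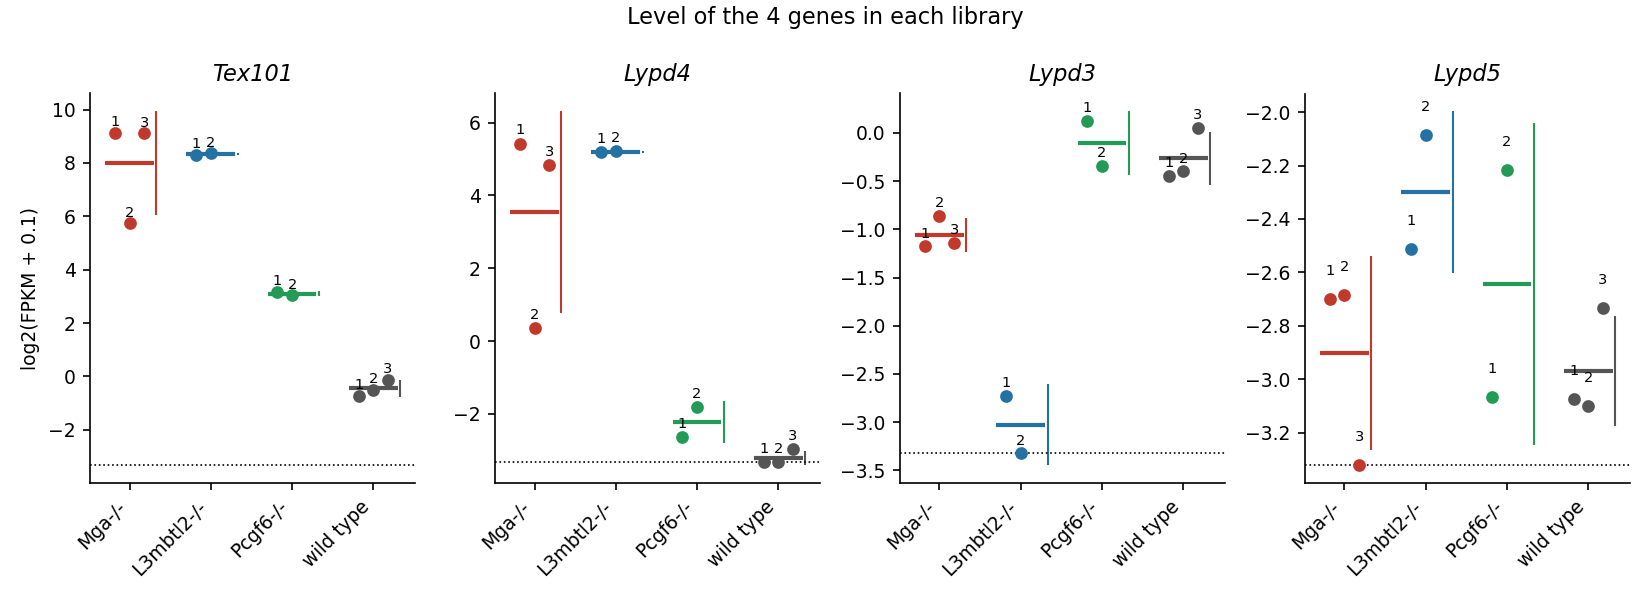
Level of Tex101, Lypd4, Lypd3 and Lypd5 as log2(FPKM + 0.1) in each of the 10 libraries, with 1 point per library, replicate numbers above the points, horizontal bars for group means, vertical bars for ± 1 SD on the log2 scale and a dotted line at 0 FPKM. The y axes differ between genes: Tex101 spans 9.85 log2 units and Lypd3 3.45, and the Mga-/- replicate 2 point is the lowest of its group for Tex101 and Lypd4 but not for Lypd3.

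The order of the Tex101 group means was 388 ± 290 FPKM in Mga-/- cells (SD, n = 3), 324 ± 7.36 FPKM in L3mbtl2-/- cells (SD, n = 2), 8.52 ± 0.591 FPKM in Pcgf6-/- cells (SD, n = 2) and 0.644 ± 0.159 FPKM in wild type cells (SD, n = 3). The first pair in this order overlapped, and the other neighbours did not. Differences from wild type in mean log2(FPKM + 0.1) were 8.44 in Mga-/-, 8.79 in L3mbtl2-/- and 3.55 in Pcgf6-/- cells, and the 3 share the same wild type libraries. Without the library labelled Mga-/- replicate 2 the Mga-/- mean was 555 FPKM and the difference 9.57. In reads, Tex101 had 47059 in Mga-/-, 25105 in L3mbtl2-/-, 604 in Pcgf6-/- and 83 in wild type libraries. The read rate was thus 13.2 times the wild type rate in Pcgf6-/- cells (exact 95% counting interval 10.5 to 16.8) and 499 times in L3mbtl2-/- cells (403 to 627). The library labelled Mga-/- replicate 2 alone had 82.4 times the wild type rate (66.1 to 104). In RNA of whole cultures, more cells that express a gene and more RNA per cell cannot be told apart, and this holds for each difference given here.

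Lypd4 was nearly silent in wild type cells, with 0, 0 and 1 read in the 3 libraries. It had 42.9, 1.19 and 28.7 FPKM in Mga-/- replicates 1, 2 and 3, 36.2 and 37.2 FPKM in L3mbtl2-/- replicates, 0.0622 and 0.186 FPKM in Pcgf6-/- replicates, and 0, 0 and 0.0271 FPKM in wild type replicates. Again all 7 knockout libraries lay above all 3 wild type libraries, but in Pcgf6-/- cells this rests on 2 and 5 reads. The Lypd4 means were 36.7 ± 0.699 FPKM in L3mbtl2-/- cells (SD, n = 2) and 24.3 ± 21.2 FPKM in Mga-/- cells (SD, n = 3), whose ranges overlapped, and 0.124 ± 0.0878 FPKM in Pcgf6-/- cells (SD, n = 2). Differences from wild type in mean log2(FPKM + 0.1) were 6.75 in Mga-/- (8.34 without replicate 2), 8.41 in L3mbtl2-/- and 0.99 in Pcgf6-/- cells. With only 1 read in wild type, the ratio of read rates is loosely bounded: 3926 in L3mbtl2-/- cells (exact 95% counting interval 704 to 155140), 2610 in Mga-/- cells (468 to 103125) and 12.7 in Pcgf6-/- cells (1.63 to 572).

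Being higher in every knockout library than in any wild type library was common in these data: it held for 28.3% of the 15731 tested genes in Mga-/- cells, 46.7% in L3mbtl2-/- cells and 36.2% in Pcgf6-/- cells. The sizes set Tex101 and Lypd4 beside a median log2 difference over all tested genes of 0.10, 0.13 and 0.04 in the same comparisons. Tex101 exceeded Lypd4 per length by 13.0, 44.8 and 19.2 times in Mga-/- replicates 1, 2 and 3, by 8.80 and 8.85 times in L3mbtl2-/- replicates, and by 144 and 43.5 times in Pcgf6-/- replicates. The ratio was thus lowest in L3mbtl2-/- cells and rested on 2 and 5 Lypd4 reads in Pcgf6-/- cells. Within the Mga-/- label, the mean of replicates 1 and 3 was 10.4 times the level in replicate 2 for Tex101 and 30.0 times for Lypd4.

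Lypd3 did not follow Tex101, although only 26.9 kb separates them. It had 0.342, 0.451 and 0.353 FPKM in Mga-/- replicates, 0.0511 and 0 FPKM in L3mbtl2-/- replicates, 0.992 and 0.689 FPKM in Pcgf6-/- replicates, and 0.634, 0.658 and 0.934 FPKM in wild type replicates. All L3mbtl2-/- and Mga-/- libraries lay below all wild type libraries, while the Pcgf6-/- and wild type ranges overlapped. Being lower in every knockout library than in any wild type library held for 20.5% of tested genes in Mga-/- cells and 32.8% in L3mbtl2-/- cells. The L3mbtl2-/- libraries held 2 Lypd3 reads and wild type 95, a read rate 28.8-fold lower in L3mbtl2-/- cells (exact 95% counting interval 7.75 to 241). In Mga-/- cells the rate was 0.512 of that in wild type (0.352 to 0.736), and in Pcgf6-/- cells 1.15 times (0.815 to 1.60). The log2 differences from wild type were -0.79 in Mga-/- (-0.89 without replicate 2), -2.76 in L3mbtl2-/- and 0.16 in Pcgf6-/- cells. Summed levels of 8 keratinocyte and stratified epithelium markers, all in the files, were 1.99 to 7.63 FPKM in Mga-/-, 3.45 to 3.57 FPKM in L3mbtl2-/-, 3.95 to 4.73 FPKM in Pcgf6-/- and 5.22 to 5.82 FPKM in wild type libraries, and Krt5, a basal keratin, stayed at or below 0.0513 FPKM in all 10 libraries, with 0 in both Pcgf6-/- ones. The markers did not move as one. Krt14, another basal keratin, had 0.115, 0.0940 and 0.497 FPKM in Mga-/- replicates, 0.144 and 0.0494 FPKM in L3mbtl2-/- replicates, 0.784 and 0.617 FPKM in Pcgf6-/- replicates, and 1.50, 1.34 and 1.50 FPKM in wild type replicates. Krtdap, a gene of differentiating keratinocytes, had 2.97, 0.304 and 0.552 FPKM in Mga-/- replicates, 0.310 and 0.0639 FPKM in L3mbtl2-/- replicates, 1.90 and 1.67 FPKM in Pcgf6-/- replicates, and 2.46, 2.65 and 2.71 FPKM in wild type replicates. Both were thus lower in L3mbtl2-/- than in wild type libraries, as Lypd3 was. Krt1 was lower there too, at 0.0172 and 0.0178 FPKM against 0.0513 to 0.384 FPKM in wild type. Ivl, which encodes the cornified envelope protein involucrin, was higher there, with 1.69 and 1.78 FPKM in L3mbtl2-/- replicates, against 0.740, 0.545 and 0.469 FPKM in wild type replicates. Krt10 was also higher in L3mbtl2-/- replicates, at 0.925 and 1.04 FPKM against 0.320 to 0.482 FPKM. So was Lor, at 0.402 and 0.464 FPKM against 0.0940 to 0.296 FPKM. The part of these markers in the Lypd3 difference was not tested.

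Lypd5 was close to the limit of detection in every library. It had 0.0540, 0.0553 and 0 FPKM in Mga-/- replicates, 0.0752 and 0.136 FPKM in L3mbtl2-/- replicates, 0.0192 and 0.115 FPKM in Pcgf6-/- replicates, and 0.0187, 0.0167 and 0.0504 FPKM in wild type replicates. These values stand for 6 reads in Mga-/-, 11 in L3mbtl2-/-, 6 in Pcgf6-/- and 5 in wild type libraries. The L3mbtl2-/- libraries lay above the wild type and Mga-/- ones, and every other pair of groups overlapped. Lying above every wild type library in L3mbtl2-/- cells held for 46.7% of the tested genes, which did not include Lypd5. The read rate in L3mbtl2-/- cells was 3.63 times that in wild type (exact 95% counting interval 1.16 to 13.3), and the log2 differences were 0.67 in L3mbtl2-/-, 0.33 in Pcgf6-/- and 0.07 in Mga-/- cells (-0.04 without replicate 2). Lypd5 did not reach 0.5 FPKM in at least 2 libraries and so was the 1 of the 4 genes left out of the test across genes.

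To see how far along the chromosome such differences extended, all genes within 250 kb of the 4 genes were taken, 47 in number, of which 32 passed the filter of 0.5 FPKM in at least 2 libraries. In Mga-/- cells 5 of the 32 rose and 8 fell, at an adjusted p under 0.05 by limma on log2(FPKM + 0.1), while 39.5% of all tested genes were called (22.8% higher and 16.7% lower). Without the library labelled Mga-/- replicate 2, 8 of the 32 rose and 9 fell, with 55.1% of all tested genes called (32.6% higher and 22.5% lower). In L3mbtl2-/- cells 2 rose, of which Gm4763 passed the filter only through the L3mbtl2-/- libraries, and 12 fell, with 40.0% of all tested genes called (23.4% higher and 16.7% lower). Pou2f2, among those that fell in Mga-/- and L3mbtl2-/- cells, passed the filter only with the wild type libraries. In Pcgf6-/- cells none rose and 1 fell, with 10.1% called (5.45% higher and 4.62% lower). The median log2 difference of the 32 neighbours was 0.02 in Mga-/-, -0.64 in L3mbtl2-/- and -0.03 in Pcgf6-/- cells, against 0.10, 0.13 and 0.04 over all tested genes. Another scaling, by median-of-ratios size factors, lowered the median log2 difference over all tested genes by 0.10 in Mga-/-, 0.11 in L3mbtl2-/- and 0.04 in Pcgf6-/- cells. It moved the share of all calls that were higher from 58.4% to 47.6% in L3mbtl2-/- cells. In the L3mbtl2-/- libraries the median of the 1208 tested chromosome 7 genes lay 0.19 below that of other chromosomes in both replicates, against -0.15, 0.01 and -0.07 in Mga-/- replicates 1, 2 and 3, 0.07 in both Pcgf6-/- replicates, and -0.02, 0.00 and 0.02 in wild type replicates. The part of this shift in the neighbours' median was not tested.

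**Figure D2:**
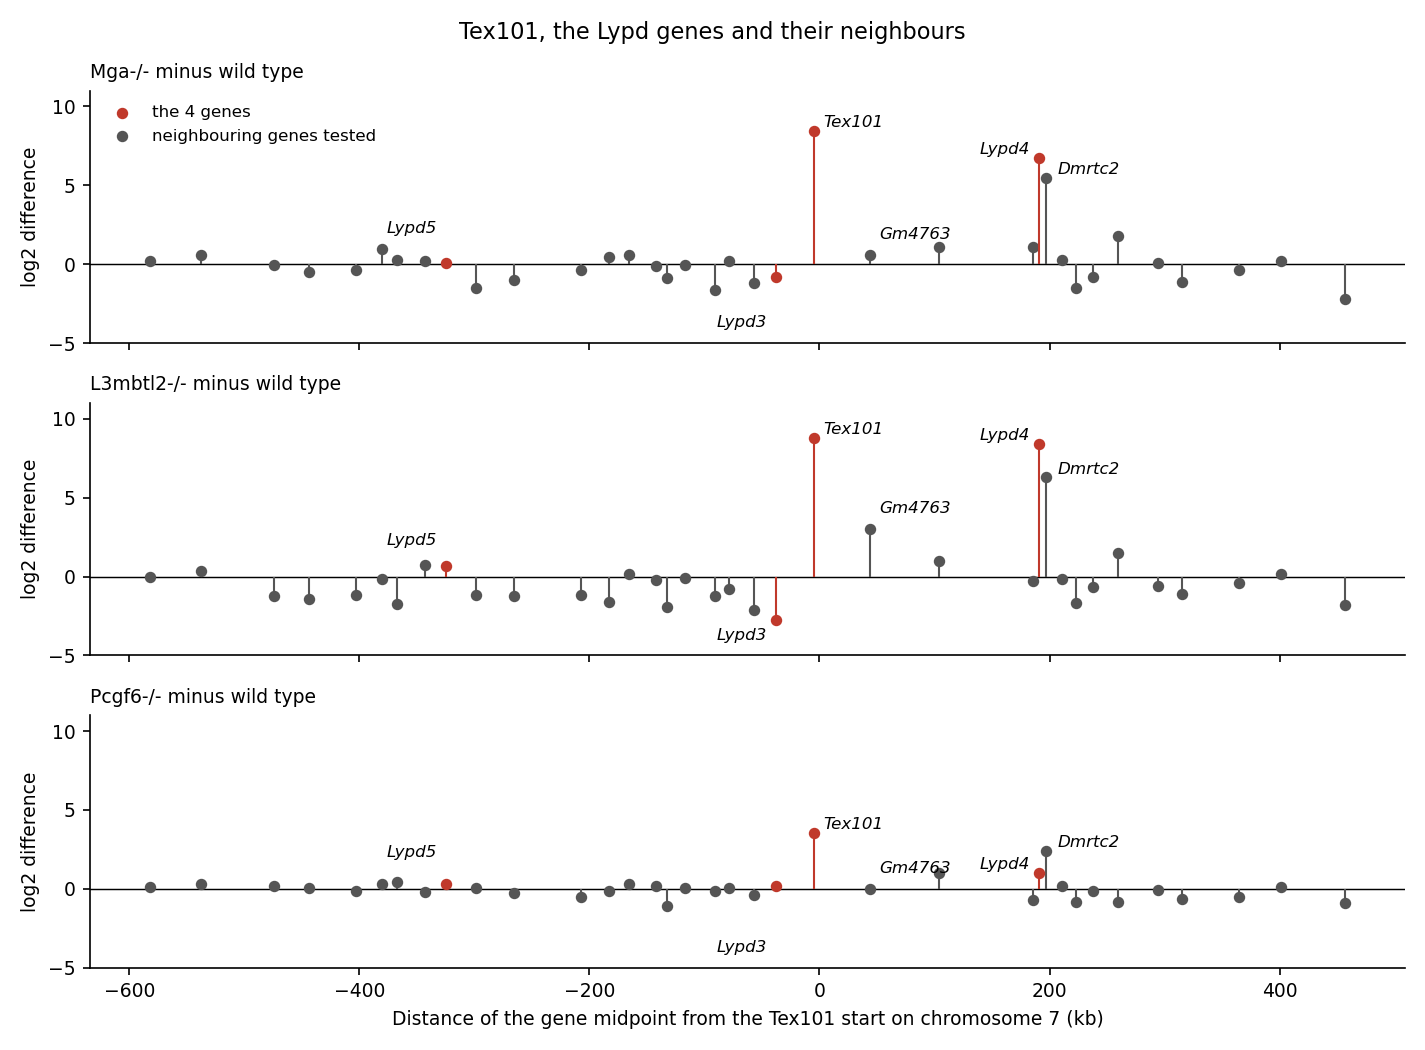
Log2 difference from wild type in Mga-/- (top), L3mbtl2-/- (middle) and Pcgf6-/- cells (bottom) for the 4 genes (red) and the 32 tested neighbours (grey), against the distance in kb of each gene's midpoint from the GENCODE start of Tex101. The tall bars are Tex101, Lypd4 and Dmrtc2 in the upper panels, where Tex101 reaches 8.44 and 8.79. Of the tested neighbours between Tex101 and Lypd4, Gm4763 is at 3.02 in L3mbtl2-/- cells. From top to bottom Ceacam10 is at 1.10, 0.99 and 0.98, and Gm9844 at 1.09, -0.28 and -0.69.

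Dmrtc2, the gene facing Lypd4, rose with the largest difference of all 32 neighbours in Mga-/- and L3mbtl2-/- cells. It had 75.3, 7.12 and 67.4 FPKM in Mga-/- replicates, 60.0 and 55.7 FPKM in L3mbtl2-/- replicates, 4.33 and 3.48 FPKM in Pcgf6-/- replicates, and 0.723, 0.601 and 0.627 FPKM in wild type replicates. No knockout library overlapped wild type, and the library labelled Mga-/- replicate 2 was again the lowest of its label. Being higher without overlap held for 28.3%, 46.7% and 36.2% of tested genes in Mga-/-, L3mbtl2-/- and Pcgf6-/- cells. The log2 fold change was 5.47 ± 0.76 in Mga-/- cells (SE, limma adjusted p = 0.000993), or 6.57 without that library, and 6.27 ± 0.85 in L3mbtl2-/- cells (SE, limma adjusted p = 0.000863). In Pcgf6-/- cells it was 2.41 ± 0.85 and did not pass (limma adjusted p = 0.11), although it passed without the library labelled Mga-/- replicate 2 (limma adjusted p = 2.91e-05) and in a fit of only the Pcgf6-/- and wild type libraries (limma adjusted p = 0.000615), with a range of 2.91e-05 to 0.382 over the alternatives. Tested directly, Dmrtc2 was higher in Mga-/- than in Pcgf6-/- cells by 3.06 ± 0.85 (SE, limma adjusted p = 0.0335), where 22.6% of tested genes were called. It was higher in L3mbtl2-/- than in Pcgf6-/- cells by 3.86 ± 0.93 (SE, limma adjusted p = 0.016), where 30.5% were called. The difference between Mga-/- and L3mbtl2-/- cells, -0.80 ± 0.85, did not pass (SE, limma adjusted p = 0.535).

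On its other side, Lypd4 is followed by Gm9844, and Tex101 lies between 2200007N16Rik and the pseudogene Gm44971. Lypd3 lies between Gm26550 and Gm4598, and Lypd5 between the miRNA gene Gm27592 and Kcnn4, which encodes a calcium-activated potassium channel. Gm4763, which RefSeq also lists as Lypd11 and which lies between Tex101 and Lypd4, had 25 and 25 reads in L3mbtl2-/- replicates, 2, 0 and 4 reads in Mga-/- replicates, and none in Pcgf6-/- or wild type libraries. It passed the filter only through the L3mbtl2-/- libraries, at 0.700 and 0.722 FPKM, so its difference is given as a description. The read rate in L3mbtl2-/- cells was at least 27.5-fold higher than in wild type, with wild type set to the limit of 3 reads over the group. BC049730, another family gene of this stretch, had 4 and 6 reads in L3mbtl2-/- replicates, 1 read in the library labelled Mga-/- replicate 2 and none elsewhere, and was named after its values were seen. It did not pass the filter. Its log2 difference in L3mbtl2-/- cells was 1.47. The other listed genes between Tex101 and Lypd4 had 1.86 (Gm18207), 1.51 (Cd177), 1.12 (Gm5893), 0.99 (Ceacam10) and -0.28 (Gm9844) there. Gm18207, Cd177 and Gm5893 stayed at or below 0.413 FPKM and did not pass the filter. Neither Ceacam10 nor Gm9844 was called in L3mbtl2-/- cells.

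Other neighbours that passed were mostly lower. Phldb3, which lies near Lypd3, fell by 2.09 on the log2 scale in L3mbtl2-/- cells (limma adjusted p = 7.43e-05), to 0.712 ± 0.0653 FPKM (SD, n = 2) against 3.36 ± 0.178 FPKM in wild type (SD, n = 3), and by 1.21 in Mga-/- cells (limma adjusted p = 0.000507). Cd79a, which encodes a B cell receptor subunit, fell by 1.65 in L3mbtl2-/- cells (limma adjusted p = 0.000471) and by 1.48 in Mga-/- cells (limma adjusted p = 0.000432). Its fall of 0.82 in Pcgf6-/- cells (limma adjusted p = 0.0328) did not pass when any 1 library of Pcgf6-/-, L3mbtl2-/- or wild type cells was left out (adjusted p up to 0.245). Pou2f2, which encodes the transcription factor OCT2, fell by 2.18 in Mga-/- cells (limma adjusted p = 0.00931), and by 2.80 without the library labelled Mga-/- replicate 2. Its fall of 1.79 in L3mbtl2-/- cells (limma adjusted p = 0.0319) was lost without any 1 library of L3mbtl2-/-, Pcgf6-/- or wild type cells (adjusted p up to 0.138). Outside wild type, Pou2f2 reached 0.5 FPKM only in Pcgf6-/- replicate 2, at 0.558 FPKM. It thus passed the filter only with the wild type libraries, where it was high, and its calls are given as a description. The zinc finger genes Zfp575 in Mga-/- cells and Zfp94 in L3mbtl2-/- cells fell by 1.64 and 1.77 (limma adjusted p = 0.00225 and 0.000631). Kcnn4, next to Lypd5, fell by 1.50 in Mga-/- cells (limma adjusted p = 0.0116). Each neighbour named here as changed in Mga-/- cells also passed without the library labelled Mga-/- replicate 2.

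Plaur, which encodes the urokinase receptor and lies between Lypd5 and Lypd3, was chosen for mention after its values were seen. It had 84.6, 6.74 and 11.7 FPKM in Mga-/- replicates, 10.8 and 10.4 FPKM in L3mbtl2-/- replicates, 17.1 and 16.8 FPKM in Pcgf6-/- replicates, and 23.6, 24.2 and 25.2 FPKM in wild type replicates. Every knockout library other than Mga-/- replicate 1 lay below wild type. Lying below every wild type library held for 32.8% of tested genes in L3mbtl2-/- and 29.2% in Pcgf6-/- cells. No comparison of Plaur passed over all libraries (limma adjusted p = 0.729 in Mga-/-, 0.29 in L3mbtl2-/- and 0.759 in Pcgf6-/- cells). Without Mga-/- replicate 1, Plaur was 1.44 lower in Mga-/- cells (log2 fold change -1.44, limma adjusted p = 0.00106) and 1.19 lower in L3mbtl2-/- cells (log2 fold change -1.19, limma adjusted p = 0.00197). In a fit of only Pcgf6-/- and wild type libraries it was -0.52 (limma adjusted p = 0.000932). Over the alternatives the adjusted p ranged from 0.00106 to 0.991 in Mga-/-, from 3.92e-05 to 0.495 in L3mbtl2-/- and from 0.000932 to 0.89 in Pcgf6-/- cells. Mga-/- replicate 1 also had the highest summed level of 8 fibroblast markers, all in the files, with 113 to 401 FPKM in Mga-/-, 138 FPKM in both L3mbtl2-/-, 91.2 to 94.5 FPKM in Pcgf6-/- and 126 to 128 FPKM in wild type libraries. None of the 8 was at 0 in any group, and their part in the Plaur values was not tested.

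The wider family was described from a list of 48 other Ly6/uPAR genes, of which 40 were in the files and 15 passed the filter. Genes were matched by GENCODE M21 symbol. Gm4763, listed there as Lypd11, was thus counted as absent, though its difference in L3mbtl2-/- cells is described above. In Mga-/- cells 6 of the 15 rose and 4 fell, in L3mbtl2-/- cells 2 rose and 4 fell, and in Pcgf6-/- cells 1 rose and 1 fell. Without the library labelled Mga-/- replicate 2 there were also 6 higher and 4 lower in Mga-/- cells, where 55.1% of all tested genes were called. They were not all the same genes, since Ly6g5b lost its call (limma adjusted p = 0.0765). The called share of the 15 was 66.7% in Mga-/-, 40.0% in L3mbtl2-/- and 13.3% in Pcgf6-/- cells, beside 39.5%, 40.0% and 10.1% of all tested genes, so it was near the background in L3mbtl2-/- and Pcgf6-/- cells. Among those called, Ly6c1 passed the filter only through Mga-/- libraries, and Ly6k and Ly6g5b only through Mga-/- and L3mbtl2-/- libraries. Lypd6b and Lypd2 passed only through wild type libraries. These were the groups in which each was high. Their calls are therefore given as a description. The Mga-/- share of 66.7% includes all of them, so it is not read as an excess over the background. In Mga-/- cells the calls of Ly6g5b and Lypd6 were also lost in 14 and 11 of 15 alternatives. The medians were 0.17, -0.11 and 0.16, against 0.10, 0.13 and 0.04 over all tested genes. Ly6k, on chromosome 15, encodes a GPI-anchored sperm protein that binds TEX101 in the mouse. It had 60, 4 and 190 reads in Mga-/- replicates (2.92, 0.199 and 9.54 FPKM), 15 and 19 reads in L3mbtl2-/- replicates (0.762 and 0.995 FPKM), 4 and 4 reads in Pcgf6-/- replicates (0.208 and 0.249 FPKM), and none in wild type. Every knockout library thus held Ly6k reads, and with wild type set to 3 reads over the group the rate was at least 89.5-fold higher in Mga-/-, 18.7-fold higher in L3mbtl2-/- and 4.84-fold higher in Pcgf6-/- cells. Of the 254 reads in Mga-/- cells 190 were from replicate 3, and the limit there was 104-fold without replicate 1, 132-fold without replicate 2 and 33.6-fold without replicate 3. The difference passed in Mga-/- cells (log2 fold change 4.36 ± 1.03 SE, limma adjusted p = 0.0107), and was 5.75 without replicate 2 and 3.25 without replicate 3. It passed narrowly in L3mbtl2-/- cells (limma adjusted p = 0.0494) and was lost in 10 of 15 alternatives, including without any 1 library of L3mbtl2-/-, Pcgf6-/- or wild type cells or without Mga-/- replicate 1 (adjusted p up to 0.332).

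Lypd6b, whose product acts on nicotinic acetylcholine receptors, was lower in all 3 knockouts. It had 0.0774, 0.0476 and 0.0479 FPKM in Mga-/- replicates, 0.0162 and 0.0167 FPKM in L3mbtl2-/- replicates, 0.165 and 0.178 FPKM in Pcgf6-/- replicates, and 1.16, 0.977 and 1.01 FPKM in wild type replicates. No knockout library overlapped wild type. Being lower without overlap held for 20.5%, 32.8% and 29.2% of tested genes in Mga-/-, L3mbtl2-/- and Pcgf6-/- cells. Lypd6b fell by 2.87, 3.30 and 2.08 on the log2 scale in Mga-/-, L3mbtl2-/- and Pcgf6-/- cells (limma adjusted p = 0.000198, 0.000206 and 0.00681). The Pcgf6-/- call was lost without either Pcgf6-/- replicate (adjusted p = 0.0727 and 0.0702). Ly6e, a widely expressed member, fell to 21.5 ± 2.97 FPKM in Mga-/- cells (SD, n = 3) and 22.2 ± 0.979 FPKM in L3mbtl2-/- cells (SD, n = 2), against 43.2 ± 0.331 FPKM in wild type (SD, n = 3, limma adjusted p = 0.000182 and 0.000439).

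Ly6a, which encodes the stem cell antigen Sca-1, had 29.1, 7.71 and 12.2 FPKM in Mga-/- replicates against 1.56, 1.12 and 0.686 FPKM in wild type replicates, and rose by 3.59 ± 0.46 (SE, limma adjusted p = 0.000705). Ly6c1 rose by 3.30 and Ly6g6d by 1.47 in Mga-/- cells (limma adjusted p = 0.00122 and 0.00364). The Ly6a and Ly6c1 levels were highest in Mga-/- replicate 1, the library with the highest summed fibroblast markers, whose part was not tested. Lypd2 fell by 2.22 in L3mbtl2-/- cells, and Ly6g5b rose by 1.88 and Lypd6 fell by 1.31 there. Their adjusted p-values of 0.025, 0.0337 and 0.0402 by limma were each lost without either L3mbtl2-/- replicate (up to 0.14, 0.232 and 0.154), and without wild type replicate 3 too. Lypd2 was also lost without wild type replicate 1, Lypd6 without wild type replicates 1 or 2 or either Pcgf6-/- replicate, and Ly6g5b without wild type replicate 2 or either Pcgf6-/- replicate. Ly6g6e rose by 2.07 in Pcgf6-/- cells (limma adjusted p = 0.0251), a call lost without any 1 library of Pcgf6-/-, L3mbtl2-/- or wild type cells (up to 0.175). In Mga-/- cells, named after its values were seen, Ly6g6e had at least 3.14 FPKM in each library, against at most 1.71 FPKM in each wild type library. It rose by 2.13 there (limma adjusted p = 0.00427), a call that held in all 15 alternatives.

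**Figure D3:**
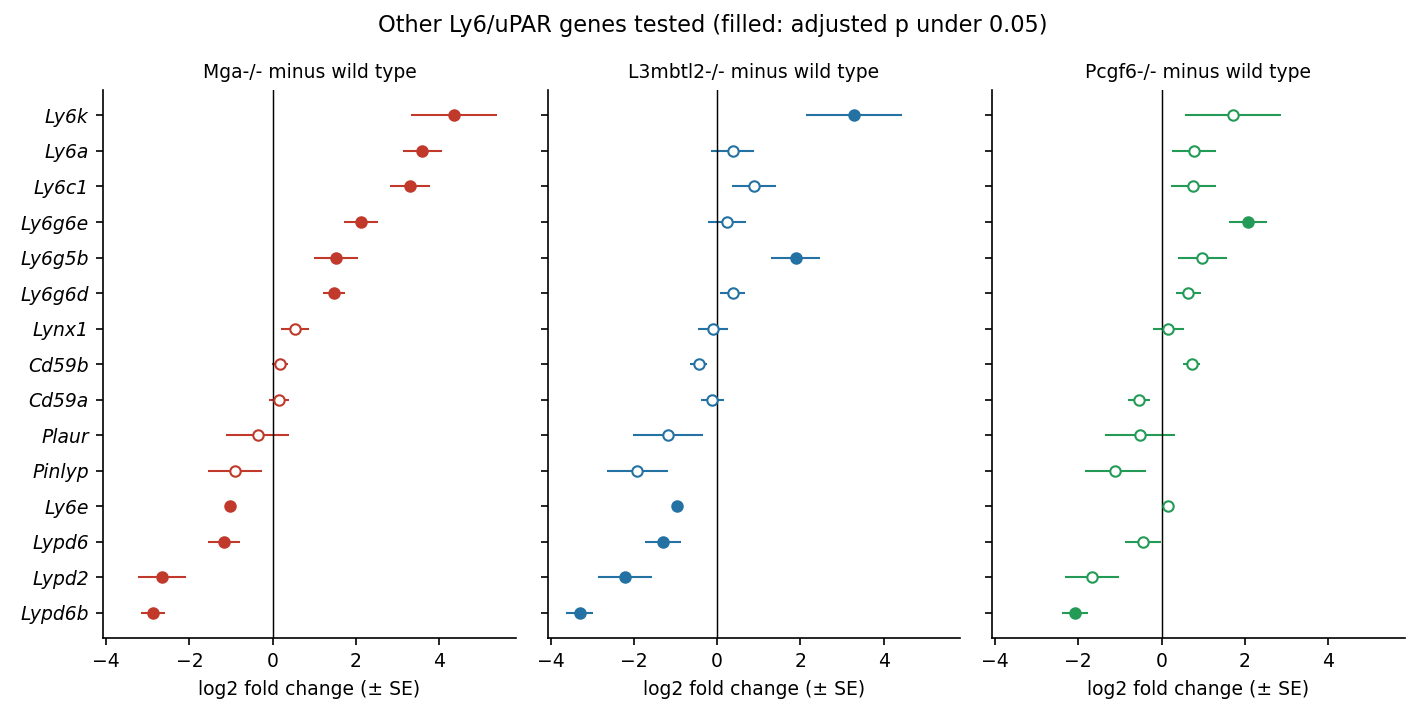
Log2 fold change ± SE from wild type of the 15 tested Ly6/uPAR genes outside the 4, in Mga-/- (left), L3mbtl2-/- (middle) and Pcgf6-/- cells (right), with filled points for an adjusted p under 0.05. Genes moved in both directions, with Ly6k at 4.36 and Lypd6b at -2.87 as the extremes in Mga-/- cells.

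Few of the genes known to act with TEX101 on the mouse sperm surface passed the filter. Of 20 listed, 15 were in the files and 7 passed the filter, of which 2 rose and 2 fell in Mga-/-, 1 rose and 1 fell in L3mbtl2-/-, and 1 rose in Pcgf6-/- cells. Leaving out the library labelled Mga-/- replicate 2 also gave 2 higher and 2 lower, though not all the same genes, since Clgn lost its call. With only 7 genes, these are 57.1%, 28.6% and 14.3% in the 3 knockouts, beside 39.5%, 40.0% and 10.1% of all tested genes (55.1% without that library). Besides Ly6k, the testis calreticulin gene Calr3 fell by 1.08 in Mga-/- cells (limma adjusted p = 0.00416). The testis chaperone gene Clgn rose by 0.998 and Pgap1 fell by 0.46 there (limma adjusted p = 0.0327 and 0.0447). Both calls were lost without any 1 library of wild type, L3mbtl2-/- or Pcgf6-/- cells or without Mga-/- replicate 3, and besides without replicate 2 for Clgn and replicate 1 for Pgap1 (up to 0.0924 and 0.134). The tyrosylprotein sulfotransferase gene Tpst2 fell by 0.46 in L3mbtl2-/- cells (limma adjusted p = 0.00311). Ace, which encodes angiotensin-converting enzyme, had 1.51 and 1.52 FPKM in Pcgf6-/- replicates against 0.506, 0.524 and 0.604 FPKM in wild type replicates. It rose by 1.33 (limma adjusted p = 0.0146), a call lost without either Pcgf6-/- replicate or without wild type replicate 1 or 2 (up to 0.131).

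The GPI anchor that holds TEX101 and LYPD3 at the membrane is built by enzymes made in every cell, and 28 of 29 listed genes were tested. In Mga-/- cells 12 rose and 4 fell, in L3mbtl2-/- cells 9 rose and 3 fell, and in Pcgf6-/- cells 1 rose and 3 fell. Leaving out the library labelled Mga-/- replicate 2 gave 18 higher and 5 lower in Mga-/- cells, beside 32.6% of all tested genes higher and 22.5% lower. The called share of the 28 was 57.1% in Mga-/-, 42.9% in L3mbtl2-/- and 14.3% in Pcgf6-/- cells, and that of all tested genes 39.5%, 40.0% and 10.1%. The L3mbtl2-/- and Pcgf6-/- shares were thus near the background. The medians were 0.36, 0.32 and 0.19, against 0.10, 0.13 and 0.04 over all tested genes. Pigh, a subunit of the enzyme of the first step, had 10.8, 5.87 and 8.36 FPKM in Mga-/- replicates, 7.48 and 7.47 FPKM in L3mbtl2-/- replicates, 2.93 and 2.84 FPKM in Pcgf6-/- replicates, and 2.90, 2.87 and 2.90 FPKM in wild type replicates. It rose by 1.45 in Mga-/- and 1.34 in L3mbtl2-/- cells (limma adjusted p = 0.000738 and 0.00179). The mannosyltransferase gene Pigm rose by 1.29 in L3mbtl2-/- cells (limma adjusted p = 0.000498), and the lipid remodelling gene Pgap2 fell by 0.81 in L3mbtl2-/- and 0.59 in Mga-/- cells (limma adjusted p = 0.000605 and 0.00163). Pigyl fell by 0.63 in Mga-/- cells and rose by 0.84 in Pcgf6-/- cells (limma adjusted p = 0.00101 and 0.00236). Pigx fell by 0.53 and Pigs by 0.51 in Pcgf6-/- cells (limma adjusted p = 0.00671 and 0.0207). Both were lost without either Pcgf6-/- replicate (up to 0.0919 and 0.175), and Pigs also without any 1 wild type replicate.

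Of 14 genes of the urokinase receptor system and of proteins linked to LYPD3, 12 were in the files and 11 were tested. In each of Mga-/- and L3mbtl2-/- cells 1 rose and 1 fell, and in Pcgf6-/- cells 1 fell. Leaving out the library labelled Mga-/- replicate 2 gave 2 higher and 2 lower in Mga-/- cells, with 55.1% of all tested genes called. Over all libraries 18.2%, 18.2% and 9.09% of the 11 were called, no larger a share than the 39.5%, 40.0% and 10.1% of all tested genes. The integrin gene Itgb4 had 1.02, 1.70 and 1.22 FPKM in Mga-/- replicates, 1.59 and 1.84 FPKM in L3mbtl2-/- replicates, 1.60 and 1.55 FPKM in Pcgf6-/- replicates, and 3.42, 3.55 and 3.62 FPKM in wild type replicates. It fell by 1.39 in Mga-/- and 1.11 in Pcgf6-/- cells (limma adjusted p = 0.00076 and 0.0128), and to 1.71 ± 0.175 FPKM in L3mbtl2-/- cells (SD, n = 2), against 3.53 ± 0.101 FPKM in wild type (SD, n = 3, limma adjusted p = 0.00545). The call was lost in L3mbtl2-/- cells without L3mbtl2-/- replicate 1 (0.0565), and in Pcgf6-/- cells without any 1 library of Pcgf6-/- or wild type (up to 0.124). Its partner gene Itga6 rose by 0.54 in Mga-/- and 0.53 in L3mbtl2-/- cells (limma adjusted p = 0.00996 and 0.0167), the second of which was lost without either L3mbtl2-/- replicate or without wild type replicate 3 (up to 0.0929).

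The genes most like each of the tested members were ranked among 13315 tested genes by the root mean square difference of their centred log2(FPKM + 0.1) over the 10 libraries, a measure that uses the same values as above. For Tex101 they were Taf7l at 0.92, Lypd4 at 1.09, Dazl at 1.18, Dmrtc2 at 1.25 and Tex13b at 1.35 log2 units, beside a range of 9.85 for Tex101 itself. Taf7l encodes a germ cell paralogue of a general transcription factor subunit, and Dazl binds RNA in germ cells. Taf7l had 147, 24.5 and 143 FPKM in Mga-/- replicates, 126 and 126 FPKM in L3mbtl2-/- replicates, 7.96 and 8.62 FPKM in Pcgf6-/- replicates, and 0.745, 0.800 and 1.04 FPKM in wild type replicates. It shared with Tex101 the drop in the library labelled Mga-/- replicate 2. For Lypd4 the nearest were Tex101 at 1.09, Taf7l at 1.30, Dmrtc2 at 1.33, Dazl at 1.65 and Tslrn1 at 1.75. For Lypd3, whose own range was 3.45, they were Egln3 at 0.28, Nmral1 at 0.29, Hspb8 at 0.30, Bhlhe40 at 0.31 and Gstt2 at 0.32. Seen from Lypd3, Tex101 ranked 13315 of the 13315, Lypd4 13314 and Dmrtc2 13308. The profiles were centred but not scaled, so genes with a large range lie far from Lypd3 by size alone. These ranks therefore do not measure how unlike the patterns are.

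**Figure D4:**
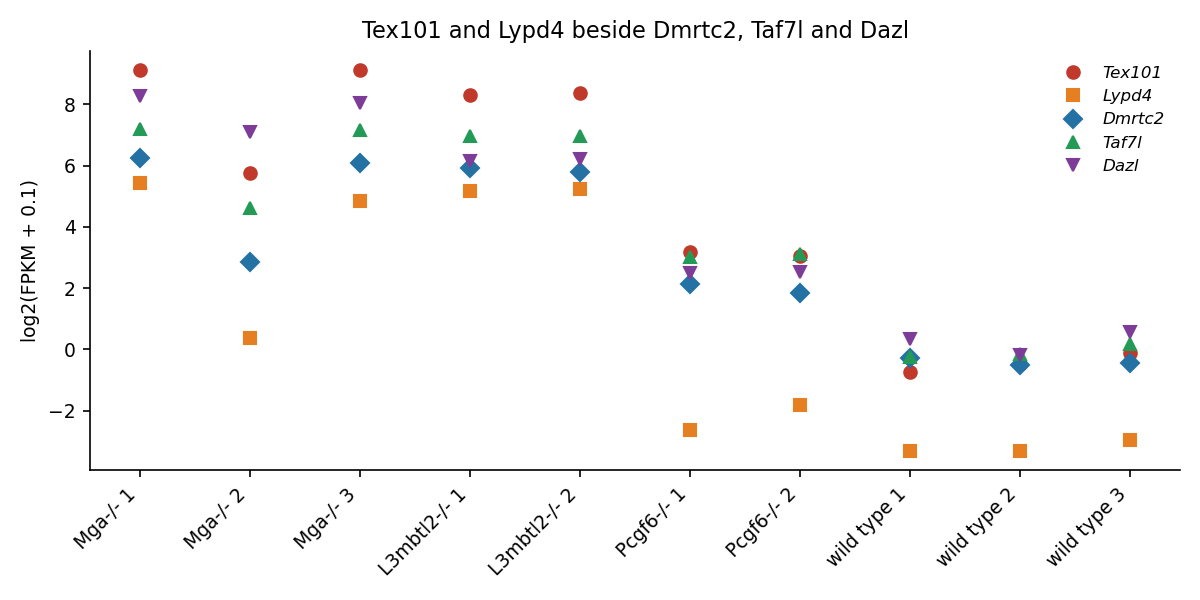
Level of Tex101, Lypd4, Dmrtc2, Taf7l and Dazl as log2(FPKM + 0.1) in each of the 10 libraries, with 1 marker per gene and library. All 5 are lowest in wild type and lower in Mga-/- replicate 2 than in Mga-/- replicates 1 and 3, and Lypd4 in Pcgf6-/- cells stays near its wild type level, at 0.0622 and 0.186 FPKM.

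Male germ cell markers were set beside Tex101 and Lypd4. The summed level of 11 of the 12 listed was 319 to 589 FPKM in Mga-/-, 236 to 237 FPKM in L3mbtl2-/-, 61.8 to 64.5 FPKM in Pcgf6-/- and 14.5 to 16.3 FPKM in wild type libraries. In each group 5 of the 11 reached 0.5 FPKM in some library, but in Pcgf6-/- cells these included Ldhc in place of Gfra1. Ldhc had 1.83 and 1.76 FPKM in Pcgf6-/- replicates and 0.371, 0.450 and 0.309 FPKM in wild type replicates. It had 0.153, 0.183 and 0.369 FPKM in Mga-/- and 0.213 and 0.165 FPKM in L3mbtl2-/- replicates, where Tex101 and Lypd4 were high. Zbtb16 stayed at or below 0.332 FPKM in all 10 libraries. Ddx4 and Dazl, which encode RNA-binding proteins of germ cells, made up most of the sum in every knockout library. Sycp1, a gene of the meiotic synaptonemal complex, had 85.9, 6.18 and 61.6 FPKM in Mga-/- replicates, 5.92 and 6.41 FPKM in L3mbtl2-/- replicates, 8.49 and 8.03 FPKM in Pcgf6-/- replicates, and 1.26, 1.26 and 0.972 FPKM in wild type replicates. Sycp3, of the same complex, had 22.2, 3.56 and 29.4 FPKM in Mga-/- replicates, 1.13 and 1.24 FPKM in L3mbtl2-/- replicates, 3.37 and 3.19 FPKM in Pcgf6-/- replicates, and 2.32, 2.46 and 1.75 FPKM in wild type replicates. Sycp3 was thus lower in L3mbtl2-/- than in wild type libraries, where Tex101 and Lypd4 were higher. Gfra1, a gene of spermatogonial stem cells, had 0.736, 0.272 and 0.281 FPKM in Mga-/- replicates, 0.861 and 1.06 FPKM in L3mbtl2-/- replicates, 0.393 and 0.443 FPKM in Pcgf6-/- replicates, and 0.878, 0.717 and 0.762 FPKM in wild type replicates. Prm2, a protamine of late spermatids, was at 0 in all 10 libraries, and its relative Prm1 stayed at or below 0.184 FPKM. The acrosome genes Acr and Acrv1 stayed at or below 0.103 and 0.0808 FPKM, so the defining markers of spermatids and sperm were at or near 0 where Tex101 and Lypd4 were high. Summed macrophage markers, 8 of 8 in the files, were 8.48 to 31.6 FPKM in Mga-/-, 384 to 401 FPKM in L3mbtl2-/-, 199 to 201 FPKM in Pcgf6-/- and 140 to 147 FPKM in wild type libraries, with none at 0 throughout a group, and their part in any difference given here was not tested.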

How the data were processed

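RNA libraries of 10 embryonic stem cell samples were made with a NEBNext Ultra kit, per the labels' protocols, and grouped by genotype label. The deposited values are FPKM per gene, computed by the authors. The submitters' processing notes name TopHat2 (2.0.12) and Bowtie2 (2.2.3), HTSeq (0.6.0) and GRCm38, and the step that scaled counts to FPKM is not given there. Of 30460 genes, 30250 had a GENCODE M21 symbol. Values are whole reads divided by gene length, within 0.005 of a read at 77.9% of genes above 0, which gave read numbers and depths. Reads are not independent molecules, so counting intervals and limits cover counting error only.

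The test was limma 3.58.1 (R 4.3.3) with trend on log2(FPKM + 0.1), which understates changes of low genes, in 1 fit of all 10 libraries with group as its term. Genes reaching 0.5 FPKM in 2 or more libraries, 15731 in all and 3 of the 4 members, were tested, with Benjamini-Hochberg adjustment over all and a threshold of 0.05. The fit was tested on simulated counts in which the libraries of a group differed only by random spread. That setting does not cover a group with a library as unlike the others as Mga-/- replicate 2. Named genes outside the members were those passing with the largest differences (up to 6 neighbours per knockout) or smallest p (up to 5 family, 4 sperm surface, 3 GPI anchor and 3 urokinase system genes), the first gene beside each member and the 5 most alike. The members and lists were chosen with earlier results of these data known. Alternatives changed the scaling, filter, pseudocount, samples fitted, window or replicate block, or left out each library.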

Additional observations from a re-analysis of the deposited data

How the results depend on the processing

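The differences of Tex101 from wild type kept their direction in every alternative run: 7.87 to 9.57 in Mga-/-, 8.65 to 8.95 in L3mbtl2-/- and 3.42 to 3.72 in Pcgf6-/- cells when 1 library was left out. For Lypd4 these ranges were 5.81 to 8.34, 8.35 to 8.52 and 0.58 to 1.40, and for Lypd3 -0.89 to -0.64, -3.06 to -2.46 and -0.08 to 0.39. For Lypd5 they were -0.04 to 0.28, 0.46 to 0.88 and -0.10 to 0.75, and the Pcgf6-/- difference of Lypd5 turned to -0.10 without Pcgf6-/- replicate 2. A pseudocount of 1 FPKM shrank the differences, to 7.63 in L3mbtl2-/- and 2.54 in Pcgf6-/- cells for Tex101, to 3.81, 5.22 and 0.15 in Mga-/-, L3mbtl2-/- and Pcgf6-/- cells for Lypd4, to -0.33 in Mga-/- and -0.76 in L3mbtl2-/- cells for Lypd3, and to 0.10 in L3mbtl2-/- cells for Lypd5. This follows from how a larger pseudocount weighs low values. Plaur in Mga-/- cells, -0.36 over all libraries, ranged from -1.44 without replicate 1 to 0.37 without replicate 2.

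Counts of called genes moved more, and the cause was not tested. Leaving out 1 library gave 10 to 17, 11 to 20 and 0 to 5 neighbours in Mga-/-, L3mbtl2-/- and Pcgf6-/- cells, 8 to 10, 2 to 7 and 0 to 4 Ly6/uPAR genes, 2 to 4, 1 to 5 and 0 to 3 sperm surface genes, 8 to 23, 5 to 17 and 1 to 8 GPI anchor genes, and 2 to 7, 0 to 8 and 0 to 2 urokinase system genes. Fitting only the 2 groups compared gave 22 neighbours in L3mbtl2-/- and 12 in Pcgf6-/- cells, 8 Ly6/uPAR genes in Pcgf6-/- cells, 2, 6 and 4 sperm surface genes and 8, 20 and 14 GPI anchor genes in Mga-/-, L3mbtl2-/- and Pcgf6-/- cells, and 9 and 5 urokinase system genes in L3mbtl2-/- and Pcgf6-/- cells. Without the filter there were 0 neighbours in Pcgf6-/- cells, 10 Ly6/uPAR genes in L3mbtl2-/- cells, 2 sperm surface genes in Mga-/- cells and 2 urokinase system genes in Pcgf6-/- cells. A pseudocount of 1 FPKM left 1 sperm surface gene in L3mbtl2-/- cells, and a window of 500 kb gave 3 neighbours in Pcgf6-/- cells. The fall of Mga in Mga-/- cells ranged from -0.95 to -0.31 and passed without replicate 2, that of L3mbtl2 from -2.50 to -2.41 and that of Pcgf6 from -1.60 to -1.54 in their own knockouts.

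Replicate numbers were shared by the groups, but same-numbered libraries did not deviate together, with correlations of deviations across genes of -0.02 to 0.03, so the numbers do not pair the samples. With the number as a replicate block there were 0 neighbours in Pcgf6-/- cells and 3 Ly6/uPAR genes in L3mbtl2-/- cells. Of 1365 alternative values for 91 results on single genes, each 1 gene in 1 knockout, 1123 kept direction and call, 235 lost the call, 6 gained it and 1 reversed. Lypd4 had 0 or 1 read in each wild type library and Lypd5 had 5 to 11 reads in each group, so depth limits what can be seen there.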
